A study of Homo sapiens with 8 samples.

Results

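The S100 genes of the calgranulin cluster and its neighbourhood were followed across 8 RNA sequencing libraries of THP1, a human acute monocytic leukaemia line. The set held S100A4, S100A6, S100A8, S100A9, S100A10, S100A11, S100A12 and S100A13, which were listed by name and matched by Ensembl identifier and symbol, giving 8 of the 34618 genes of the deposited tables. The 4 RRM2_OE libraries came from THP1 cells labelled iRxI/AxA mutant, with RRM2 OE in their description, and RRM2 encodes the small subunit of ribonucleotide reductase. What iRxI/AxA stands for is not spelled out. The 4 MOCK libraries came from THP1 cells carrying an empty vector, and cells of both groups received doxycycline at 2 µg/mL. The labels do not give the promoter, the number of clones or whether replicates were separate cultures, so each p-value reflects library-to-library spread alone, which may be technical. The series asked how hyperactive ribonucleotide reductase bears on the differentiation block of acute myeloid leukaemia.

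S100 proteins are small calcium-binding proteins of the EF-hand type that mostly work as dimers. S100A8 and S100A9 pair to form calprotectin, a cytosolic complex of neutrophils and monocytes that binds zinc and manganese, restrains microbes and, once released, signals through TLR4 and the receptor AGER. Together with S100A12 they are called calgranulins, and their transcripts are commonly used as signs of myeloid maturation. The other members are more widely expressed: S100A4 binds non-muscle myosin, S100A6 binds CACYBP and annexins, S100A10 pairs with annexin A2, S100A11 binds annexin A1, and S100A13 takes part in the unconventional export of FGF1 and IL1A.

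All 8 genes lie on chromosome 1 of hg19, in a pair of blocks. S100A10 (151955391 to 151966866, minus strand) and S100A11 (152004982 to 152020383, minus strand) are separated by 1.31 Mb from the block that holds the other 6. That block runs from S100A9 (153330330 to 153333503, plus strand) through S100A12 (153346184 to 153348125, minus strand), S100A8 (153362508 to 153363664, minus strand), S100A6 (153507075 to 153508720, minus strand) and S100A4 (153516089 to 153522612, minus strand) to S100A13 (153591263 to 153606568, minus strand). The S100A4 span contains S100A3 on the same strand, and the S100A13 span overlaps S100A1 and CHTOP on the opposite strand and 2 unnamed genes on its own strand. S100A6 and S100A11 each overlap 1 unnamed gene on the opposite strand, while S100A8, S100A9, S100A10 and S100A12 overlap no other gene of the table. How strand was handled in counting is not given in the sources used here, so the low counts of S100A13 are uncertain. The same-strand overlaps of S100A13 and S100A4 are there however strand was handled, so reads in these stretches may be miscounted for both genes.

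The promoter windows of the 3 calgranulins are shown because S100A8 and S100A9 rose together in the comparison that follows, while S100A12 lay at the detection floor. Each RefSeq window (GRCh38.p14, a different build from the deposited tables) covers 250 bases before and 50 bases after an annotated transcript start and is written 5′ to 3′ on the gene's strand. The windows are chr1:153391024-153391323 on the minus strand for S100A8 (of its 3 annotated starts, the one chosen for display because its TATAAA letters lie closest upstream), chr1:153357604-153357903 on the plus strand for S100A9 and chr1:153375572-153375871 on the minus strand for S100A12. Capitals mark matches, on either strand, to TATAAA (the TATA box), GAGGAAG (letters of the PU.1 site, reading CTTCCTC on the other strand), TTGCNNAA (a C/EBP site) and TGANTCA (an AP-1 site).
S100A8: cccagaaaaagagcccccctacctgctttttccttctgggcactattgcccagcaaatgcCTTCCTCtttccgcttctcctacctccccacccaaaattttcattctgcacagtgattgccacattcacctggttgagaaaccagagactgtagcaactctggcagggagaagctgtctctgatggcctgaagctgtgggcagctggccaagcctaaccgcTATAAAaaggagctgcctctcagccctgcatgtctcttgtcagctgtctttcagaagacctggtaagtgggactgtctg
S100A9: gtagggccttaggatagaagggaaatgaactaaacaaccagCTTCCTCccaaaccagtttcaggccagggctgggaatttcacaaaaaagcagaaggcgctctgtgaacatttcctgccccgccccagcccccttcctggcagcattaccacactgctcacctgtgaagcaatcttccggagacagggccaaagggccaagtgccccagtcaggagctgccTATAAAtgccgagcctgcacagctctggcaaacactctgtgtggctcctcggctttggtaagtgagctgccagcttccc
S100A12: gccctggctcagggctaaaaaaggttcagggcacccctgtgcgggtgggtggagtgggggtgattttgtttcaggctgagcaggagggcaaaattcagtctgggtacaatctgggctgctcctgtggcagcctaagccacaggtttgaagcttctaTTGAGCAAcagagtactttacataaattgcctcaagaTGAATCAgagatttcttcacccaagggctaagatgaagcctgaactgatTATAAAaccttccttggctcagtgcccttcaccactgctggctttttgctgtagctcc
In S100A9 and in the S100A8 window shown, which was chosen by its TATAAA, these letters began 29 bases before the start. CTTCCTC began 190 bases before the start in this S100A8 window and 209 bases before it in S100A9. Of the S100A8 windows not shown, 1 had no TATAAA and CTTCCTC at 75 bases, and 1 had TATAAA at 126 bases and no CTTCCTC. S100A12 held TATAAA, beginning 8 bases before the start, TTGAGCAA and TGAATCA, and no GAGGAAG in this window. Over all 12 windows of the 8 genes, 5 genes had TATAAA in at least 1 window, 2 had GAGGAAG, 2 had TTGCNNAA and 1 had TGANTCA. Of all 35116 RefSeq windows, 11.5% held TATAAA, 13.6% GAGGAAG, 10.5% TTGCNNAA and 7.71% TGANTCA. These shares are per window, whereas the counts before them are per gene. Some genes have more than 1 window, so the shares and counts are not like measures. No match was made to overlap another, and a match is only a run of letters.

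Library totals lay between 10994255 and 11686152 counts, and levels are given as CPM, the count of a gene scaled to its library's total, here with TMM factors. RRM2 itself was at 215 to 236 CPM in RRM2_OE and 116 to 128 CPM in MOCK, which fits the labels. Of 15286 genes tested with edgeR's quasi-likelihood test, 7.41% were higher and 5.42% lower in RRM2_OE at a Benjamini-Hochberg adjusted p below 0.05. Rises made up 57.7% of the calls, against 68.7% on log2(RPKM + 1). The 12 monocyte and macrophage markers checked against the cell label summed to 2429 to 2647 CPM in RRM2_OE and 1927 to 2133 CPM in MOCK, most of it lysozyme (LYZ), and 4 rose and 1 fell. CD68 averaged 0.737 CPM in RRM2_OE and 0.667 CPM in MOCK, low for a macrophage marker. Neutrophil markers summed to 867 to 1181 CPM in RRM2_OE and 877 to 1173 CPM in MOCK, with 1 of 5 tested higher and 1 lower. Most of this sum was MMP9, at a mean of 810 CPM in RRM2_OE and 730 CPM in MOCK. CSF3R, which fell, averaged 178 CPM in RRM2_OE and 268 CPM in MOCK. Apart from these and CXCR2, which rose, the listed neutrophil genes averaged 2.22 CPM or less in either group. The lymphoid genes CD3D, NKG7 and GNLY all rose, and the 5 T and NK markers summed to 63.8 to 78.7 CPM in RRM2_OE and 44.4 to 49.6 CPM in MOCK. The B cell gene CD79A rose by 0.63 on the log2 scale. The 5 erythroid markers summed to 413 to 479 CPM in RRM2_OE and 562 to 618 CPM in MOCK, and ALAS2 (-0.66) and HBG2 (-0.64) fell. The keratinocyte genes KRT5, KRT19 and IVL, from a list of 8 keratinocyte and epithelial markers, had 0 counts in all 8 libraries. KRT18 averaged 16.2 CPM in RRM2_OE and 14.8 CPM in MOCK, and KRT8 15.3 CPM in RRM2_OE and 15.1 CPM in MOCK, with neither past the test, and the whole list summed to 30.1 to 33.9 CPM in RRM2_OE and 27.4 to 33.9 CPM in MOCK. Libraries with odd replicate numbers stood apart from those with even numbers in both groups: the mitochondrial share was 8.02% to 9.51% in odd-numbered libraries and 6.43% to 7.69% in even-numbered ones. What this split stands for is not given in the labels.

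The calgranulin cluster gave the largest rises of the set. S100A8, S100A9 and S100A6 rose in RRM2_OE, S100A10 and S100A11 had higher means that in edgeR with TMM factors over all 8 libraries did not pass the test without a term for replicate number but passed with one, and S100A4 and S100A13 did not pass. S100A12 was too low to test. Thus 3 of the 7 tested genes rose and 0 fell, where 7.41% of all genes rose and 5.42% fell. At an unadjusted p under 0.05, 5 of the 7 were higher and 0 lower in each of edgeR, limma-voom and DESeq2. The share of all genes at that unadjusted p is not given here. The median log2 fold change of the 7 was 0.30, beside -0.00 for all genes tested. The set was chosen with earlier results of these data known, so these counts are a description.

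S100A8, the smaller calprotectin subunit, had 2.26, 2.35, 2.17 and 1.81 CPM in RRM2_OE replicates 1 to 4, against 0.880, 1.06, 1.16 and 0.718 CPM in MOCK replicates 1 to 4. All 4 RRM2_OE libraries lay above all 4 MOCK libraries, and the lowest RRM2_OE value was replicate 4. The mean was 2.15 ± 0.236 CPM in RRM2_OE and 0.956 ± 0.198 CPM in MOCK (SD, n = 4 each), a 2.23-fold rise (log2 fold change 1.16, SE 0.22, adjusted p = 0.00436, edgeR). These levels rest on 21 to 27 reads per RRM2_OE library and 8 to 13 reads per MOCK library, and on log2(RPKM + 1) the log2 fold change was 0.69, still past the test. By size the rise ranked 53 among the 1133 genes called higher, while the mean level of S100A8 ranked 14163 of 15286 genes.

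S100A9, the partner subunit, had 19.1, 18.5, 19.4 and 16.4 CPM in RRM2_OE replicates 1 to 4, against 12.2, 9.46, 14.8 and 10.05 CPM in MOCK replicates 1 to 4. The groups did not overlap, and within MOCK replicates 1 and 3 were above replicates 2 and 4. The mean was 18.4 ± 1.36 CPM in RRM2_OE and 11.6 ± 2.41 CPM in MOCK (SD, n = 4 each), a 1.58-fold rise (log2 fold change 0.66, SE 0.13, adjusted p = 0.00463, edgeR). The rise was 0.51 on the log2 scale in odd-numbered libraries alone (adjusted p = 2.34e-04, edgeR) and 0.84 in even-numbered libraries alone (adjusted p = 8.97e-08, edgeR). In bulk RNA a larger share of cells with the transcript and more transcript per cell cannot be told apart. The monocyte markers CD14 and LYZ rose beside S100A8 and S100A9, with log2 fold changes of 0.41 and 0.37. ITGAM and CSF1R rose too, whereas MNDA of the same list fell by 0.39. FCGR3A (-0.55) and CD163 (-0.14) were among the 5 tested genes of this list that did not pass. The part of these markers in the result was not tested.

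S100A12, the remaining calgranulin, was at the detection floor. It had 1, 3, 5 and 3 counts in RRM2_OE replicates 1 to 4, 12 in all, against 5, 0, 4 and 1 counts in MOCK replicates 1 to 4, 10 in all. A count of 0 allows up to 0.263 CPM in MOCK replicate 2 (3 counts of its total), and these counts cover counting error only. A difference between the groups was not detectable at this depth. The gene that lies between S100A9 and S100A8 on the chromosome thus had too few reads to be set beside them.

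Among the widely expressed members, S100A6 gave the smallest adjusted p of the set. It had 233, 228, 228 and 218 CPM in RRM2_OE replicates 1 to 4, against 183, 184, 189.7 and 192 CPM in MOCK replicates 1 to 4. The groups were tight and did not overlap. The mean was 227 ± 6.44 CPM in RRM2_OE and 187 ± 4.01 CPM in MOCK (SD, n = 4 each), a 1.21-fold rise (log2 fold change 0.28, SE 0.04, adjusted p = 9.07e-04, edgeR). S100A6, S100A8 and S100A9 were the 3 members whose groups did not overlap with RRM2_OE higher, which held for 10.5% of all tested genes. The reverse, all RRM2_OE libraries below all MOCK libraries, held for 0 members and 8.89% of all tested genes.

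**Figure D1:**
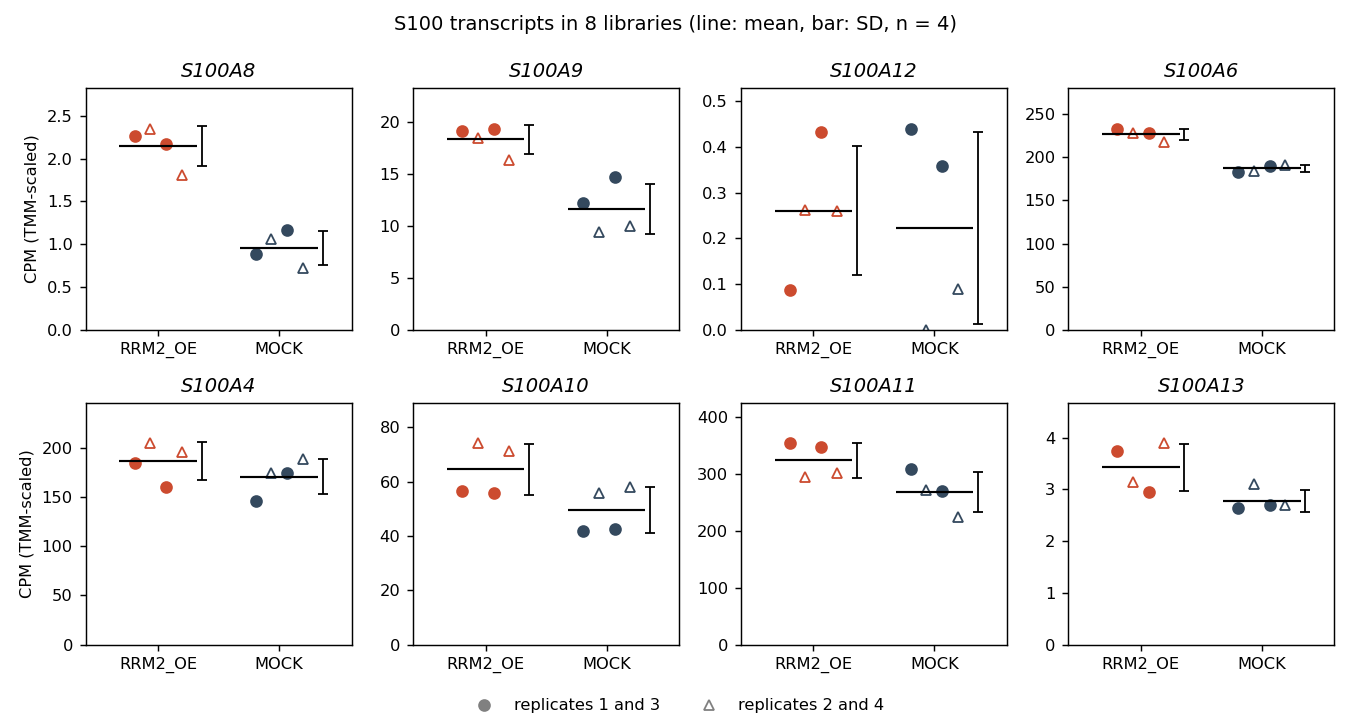
CPM (y axis, TMM-scaled, from 0) of each of the 8 S100 genes in the 4 RRM2_OE libraries (red, left) and the 4 MOCK libraries (dark, right); filled circles are replicates 1 and 3, open triangles replicates 2 and 4, lines are means and bars SD. S100A8, S100A9 and S100A6 show no overlap between the groups, S100A10 is split by replicate number within each group, and S100A12 stays below 0.5 CPM.

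S100A10, the light chain that binds annexin A2, had 56.7, 74.1, 55.99 and 71.3 CPM in RRM2_OE replicates 1 to 4, against 41.99, 55.7, 42.6 and 58.1 CPM in MOCK replicates 1 to 4. Replicates 2 and 4 were above replicates 1 and 3 in both groups, so that the groups overlapped although each RRM2_OE library exceeded the MOCK library of the same number. The mean was 64.5 ± 9.52 CPM in RRM2_OE and 49.6 ± 8.52 CPM in MOCK (SD, n = 4 each). The log2 fold change was 0.38 (SE 0.13, adjusted p = 0.084, edgeR). With replicate number as a block it was 0.38 (SE 0.05, adjusted p = 7.58e-08, edgeR), and DESeq2 without the block gave adjusted p = 0.0422.

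S100A11, the most abundant member, had 354, 294, 348 and 301 CPM in RRM2_OE replicates 1 to 4, against 309, 272, 269 and 224 CPM in MOCK replicates 1 to 4. The replicate split ran the other way, with replicates 1 and 3 above replicates 2 and 4 in RRM2_OE, and MOCK replicate 1 reached into the RRM2_OE range. The mean was 324 ± 30.9 CPM in RRM2_OE and 268 ± 34.8 CPM in MOCK (SD, n = 4 each). The log2 fold change was 0.27 (SE 0.09, adjusted p = 0.082, edgeR), and 0.28 (SE 0.04, adjusted p = 6.57e-04, edgeR) with the block. Without MOCK replicate 1 it was 0.35 and passed the test (adjusted p = 0.029, edgeR), as it did at 0.29 on library sizes alone, without TMM factors (adjusted p = 0.0367, edgeR). It also passed in replicates 1 and 3 alone (adjusted p = 2.66e-09) but not in replicates 2 and 4 alone (adjusted p = 0.102, edgeR). With the block 5 of the 7 genes rose and 0 fell, where 15.1% of all genes rose and 14% fell. Replacing the block by an odd/even term, 5 rose and 0 fell, where 15.9% of all genes rose and 14.9% fell.

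S100A4, the metastasis-associated S100 protein, had 185, 205, 161 and 197 CPM in RRM2_OE replicates 1 to 4, against 146, 175, 175 and 189 CPM in MOCK replicates 1 to 4. The groups overlapped, since RRM2_OE replicate 3 was below 3 of the MOCK libraries. The mean was 187 ± 19.2 CPM in RRM2_OE and 171 ± 17.8 CPM in MOCK (SD, n = 4 each), and the log2 fold change of 0.13 (SE 0.09, adjusted p = 0.391, edgeR) did not pass, nor did it with the block (adjusted p = 0.324, edgeR). S100A13 had 3.74, 3.14, 2.95 and 3.89 CPM in RRM2_OE replicates 1 to 4, against 2.64, 3.10, 2.69 and 2.69 CPM in MOCK replicates 1 to 4. Its groups overlapped at MOCK replicate 2. The log2 fold change was 0.30 (SE 0.15, adjusted p = 0.247, edgeR), close to that of S100A11 but measured on 30 to 45 reads per library.

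**Figure D2:**
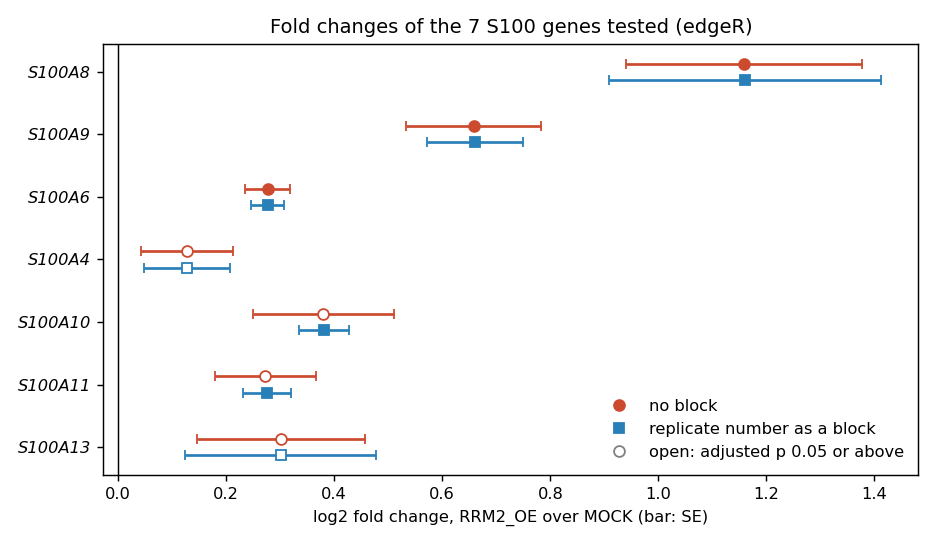
Log2 fold change of RRM2_OE over MOCK (x axis) with its SE for the 7 S100 genes tested by edgeR, without a block (red circles) and with replicate number as a block (blue squares); open symbols did not reach an adjusted p below 0.05. The block leaves the fold changes in place and narrows the SE of S100A10 and S100A11, which pass only with it here.

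The replicate split was not shared by all members. The log2 ratio of odd-numbered to even-numbered libraries was -0.37 in RRM2_OE and -0.43 in MOCK for S100A10, and -0.22 in RRM2_OE and -0.18 in MOCK for S100A4, both lower in odd-numbered libraries. It was 0.24 in RRM2_OE and 0.22 in MOCK for S100A11, and 0.14 in RRM2_OE and 0.47 in MOCK for S100A9, both higher in odd-numbered libraries. S100A6 stayed near even, at 0.05 in RRM2_OE and -0.01 in MOCK. For S100A10 this split was about as large as the difference between the groups.

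Per kilobase of exon, the deposited RPKM values order the members over nearly 3 orders of magnitude. S100A11 came first, at 478 ± 39.1 RPKM in RRM2_OE and 392 ± 44.2 RPKM in MOCK (SD, n = 4 each), followed by S100A6 at 234 ± 4.99 RPKM in RRM2_OE and 192 ± 7.29 RPKM in MOCK. S100A4 came next at 183 ± 20.8 RPKM in RRM2_OE and 166 ± 19.9 RPKM in MOCK, and S100A6 was above it in every library although their ranges overlapped in MOCK. S100A10 was at 42.0 ± 6.75 RPKM in RRM2_OE and 32.0 ± 5.87 RPKM in MOCK. S100A9 was at 31.9 ± 2.08 RPKM in RRM2_OE and 20.03 ± 4.12 RPKM in MOCK, below the range of S100A10 in both groups. The order of the next pair differed between the groups: S100A8, at 2.14 ± 0.231 RPKM, lay above the whole range of S100A13, at 1.34 ± 0.182 RPKM, in RRM2_OE, whereas in MOCK their ranges overlapped at 0.944 ± 0.194 RPKM for S100A8 and 1.08 ± 0.0842 RPKM for S100A13. S100A12 was last, at 0.506 ± 0.272 RPKM in RRM2_OE and 0.425 ± 0.399 RPKM in MOCK, and its range met that of S100A8 in MOCK.

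**Figure D3:**
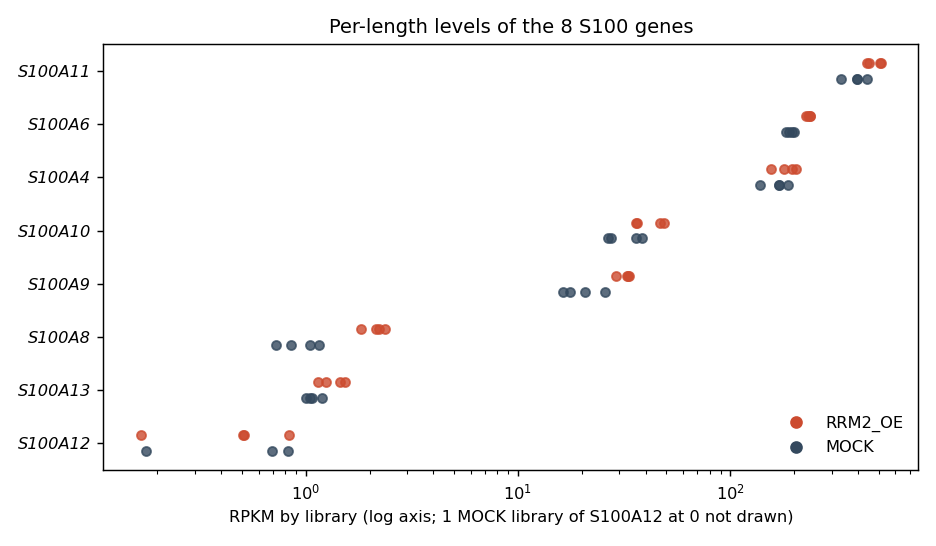
RPKM of the 8 S100 genes (x axis, log scale) in each RRM2_OE library (red, upper row of each gene) and each MOCK library (dark, lower row), ordered by mean RPKM in RRM2_OE. S100A11, S100A6 and S100A4 lie above 100 RPKM, and S100A8 and S100A9 are the genes whose points move furthest apart between the groups.

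Summed over the 8 genes, the level was 973 ± 23.0 RPKM in RRM2_OE and 804 ± 17.7 RPKM in MOCK (SD, n = 4 each). The makeup of this sum was nearly the same in both groups for the abundant members: S100A11 made up 49.1% in RRM2_OE and 48.7% in MOCK, S100A6 24.1% in RRM2_OE and 23.9% in MOCK, and S100A4 18.8% in RRM2_OE and 20.7% in MOCK. S100A9 made up 3.28% in RRM2_OE and 2.49% in MOCK, and S100A8 0.220% in RRM2_OE and 0.117% in MOCK. The calprotectin transcripts were thus a small part of S100 RNA in these cells, and the sum was carried by S100A11, S100A6 and S100A4.

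The transcripts of the calprotectin subunits were far from equal. Per kilobase, S100A8 was at 6.34% to 7.30% of S100A9 in the 4 RRM2_OE libraries and at 4.13%, 6.43%, 4.52% and 4.10% in MOCK replicates 1 to 4. The highest MOCK value, replicate 2, lay inside the RRM2_OE range, and the other 3 lay below it. These percentages use total exon lengths of 1006 bp for S100A8 and 577 bp for S100A9, which need not be those of the transcripts present. Counted as reads, S100A8 was at 11.1 to 12.7 per 100 S100A9 reads in RRM2_OE and 7.14 to 11.2 in MOCK. In reads rather than per kilobase, which shifts every library by the same amount, the mean log2 ratio of S100A8 to S100A9 was -3.10 ± 0.094 in RRM2_OE and -3.61 ± 0.307 in MOCK (SD, n = 4 each), a difference of 0.51 that did not pass an exact two-sided permutation test (p = 0.0857, where the smallest p possible is 0.0286). Without MOCK replicate 2 the difference was 0.66, at the smallest exact permutation p that 4 against 3 libraries allow (p = 0.0286). On log2(RPKM + 1), which compresses the low S100A8 values, the difference was 0.03 (exact permutation p = 0.886).

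Few of the other S100 genes were expressed. Of 13 listed, 5 could be tested, and 0 passed in either direction by edgeR, limma-voom or DESeq2. Over all genes, 7.41% were higher and 5.42% lower in edgeR, so 0 of 5 is near these shares and is no result about the list. At an unadjusted p under 0.05 there were 0 by edgeR and 1 by DESeq2, with the share of all genes at that threshold not given here. S100B, known mainly from glia and melanocytes, averaged 108 ± 13.6 CPM in RRM2_OE and 112 ± 15.8 CPM in MOCK (SD, n = 4 each), with a log2 fold change of -0.06. S100A1, which overlaps S100A13, gave 0.31, S100Z 0.16 and S100A3 -0.18 on the log2 scale. S100PBP, which encodes a binding partner of S100P and not an S100 protein, gave 0.13. It was the 1 gene of this list that rose with the block (adjusted p = 0.0482, edgeR). With the block, 15.1% of all genes rose and 14% fell. S100A7 and S100A7A had 0 counts in all 8 libraries.

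Of 27 tested receptors and partners of the S100 proteins, 3 rose and 1 fell, with a median log2 fold change of 0.01, beside 7.41% of all genes higher and 5.42% lower. The count is near these shares and is no result about the list. TLR4, the receptor through which calprotectin signals, averaged 69.1 ± 2.63 CPM in RRM2_OE and 69.7 ± 2.64 CPM in MOCK (SD, n = 4 each), and AGER averaged 9.68 ± 1.48 CPM in RRM2_OE and 11.6 ± 1.32 CPM in MOCK. AGER (log2 fold change -0.26) passed with the block (adjusted p = 0.0456, edgeR) and with the odd/even term (adjusted p = 0.0418, edgeR). Annexin A2 (ANXA2), the partner of S100A10, gave a log2 fold change of -0.11 (SE 0.07), and ANXA1, the partner of S100A11, 0.05 (SE 0.07), neither past the test. ANXA2 passed with the odd/even term (adjusted p = 0.0259) and in even-numbered libraries alone (adjusted p = 0.0425), but not with the block (adjusted p = 0.0518, edgeR). IL1A, the cytokine exported with S100A13, rose to 9.42 ± 1.10 CPM in RRM2_OE, against 6.11 ± 0.408 CPM in MOCK (log2 fold change 0.62, SE 0.11, adjusted p = 0.00383, edgeR). SLC39A10, a zinc importer, fell by 0.31 on the log2 scale (adjusted p = 0.0016, edgeR). CYBB, the catalytic subunit of the phagocyte oxidase, rose by 0.20 and ANXA5 by 0.21, with overlapping groups. The CYBB call held only on leaving out RRM2_OE replicate 1 or MOCK replicate 2 and was lost without any other single library (adjusted p up to 0.104, edgeR). The ANXA5 call held only without MOCK replicate 2 (adjusted p up to 0.138 without the others, edgeR). With the block 6 of the 27 rose and 4 fell, beside 15.1% of all genes higher and 14% lower.

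Factors described as regulators of S100A8 and S100A9 went both ways. Of 14 tested, 3 rose and 1 fell, with a median log2 fold change of 0.06, beside 7.41% of all genes higher and 5.42% lower. ATF3, a stress-induced factor, rose by 0.79 (SE 0.10, adjusted p = 1.93e-04, edgeR), HIF1A, the oxygen-regulated factor, by 0.22, and IRF8, a factor of the monocyte lineage, by 0.46 on the log2 scale. CEBPE, a factor of granulocyte maturation, fell to 8.92 ± 1.25 CPM in RRM2_OE, against 14.1 ± 1.08 CPM in MOCK (SD, n = 4 each). PU.1 (SPI1), a master factor of myeloid cells, averaged 286 ± 43.7 CPM in RRM2_OE and 284 ± 43.4 CPM in MOCK. CEBPB, the C/EBP factor of macrophages, gave 0.33 (SE 0.11, adjusted p = 0.0636, edgeR), and passed with the block (adjusted p = 1.33e-08, edgeR). CEBPA gave -0.08 on the log2 scale and passed with the odd/even term (adjusted p = 0.0362, edgeR) but not with the block (adjusted p = 0.0549, edgeR). The IRF8 call was lost without RRM2_OE replicate 4 (adjusted p = 0.0511, edgeR). With the block 6 of the 14 rose and 3 fell, beside 15.1% of all genes higher and 14% lower.

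Other antimicrobial proteins of myeloid cells were split, with more falling than rising. Of 13 tested, 4 rose and 7 fell, with a median log2 fold change of -0.41, beside 7.41% of all genes higher and 5.42% lower. Among those that fell, the 4 with the smallest adjusted p were the proteases ELANE (-1.06) and PRTN3 (-1.20), the related protein AZU1 (-0.72) and the peroxidase MPO (-1.39). The others that fell were RNASE2 (-0.51), CTSG (-0.50) and RNASE3 (-0.41). The 4 that rose were the chitinase-like protein CHI3L1 (0.60), LYZ (0.37), BPI (0.36) and CST7 (0.29). The neutrophil granule genes LTF and LCN2 were near 1 to 2 CPM, with log2 fold changes of -0.25 and 0.65 that did not pass. The granulocyte precursor markers MPO, ELANE, PRTN3, AZU1 and CTSG summed to 2271 to 2632 CPM in RRM2_OE and 4837 to 5664 CPM in MOCK, and all 5 are also in the antimicrobial list. Their part in the S100 results was not tested.

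Of 88 neighbouring genes within 500 kb of a member, 27 were tested, 2 rose and 2 fell, beside 7.41% of all genes higher and 5.42% lower, shares near those of the list. Their median log2 fold change was -0.01. NPR1, a natriuretic peptide receptor, rose to 1.80 ± 0.293 CPM in RRM2_OE, against 0.624 ± 0.303 CPM in MOCK (SD, n = 4 each; log2 fold change 1.52, adjusted p = 0.00872, edgeR). SLC27A3, a fatty acid transport protein, rose by 0.24, while GATAD2B, a subunit of the NuRD complex, fell by 0.21 and SNX27, a sorting nexin, fell by 0.25 on the log2 scale. These last 3 calls depended on the libraries: SLC27A3 kept its call only without MOCK replicate 1 (adjusted p up to 0.0841 otherwise), GATAD2B only without MOCK replicate 4 (up to 0.108) and SNX27 only without MOCK replicate 3 or 4 (up to 0.129, edgeR). CHTOP, whose span overlaps S100A13, gave -0.15 (adjusted p = 0.0554, edgeR), and passed with the block (adjusted p = 0.00272) and with the odd/even term (adjusted p = 0.00131, edgeR). With the block 5 of the 27 rose and 4 fell, beside 15.1% of all genes higher and 14% lower.

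**Figure D4:**
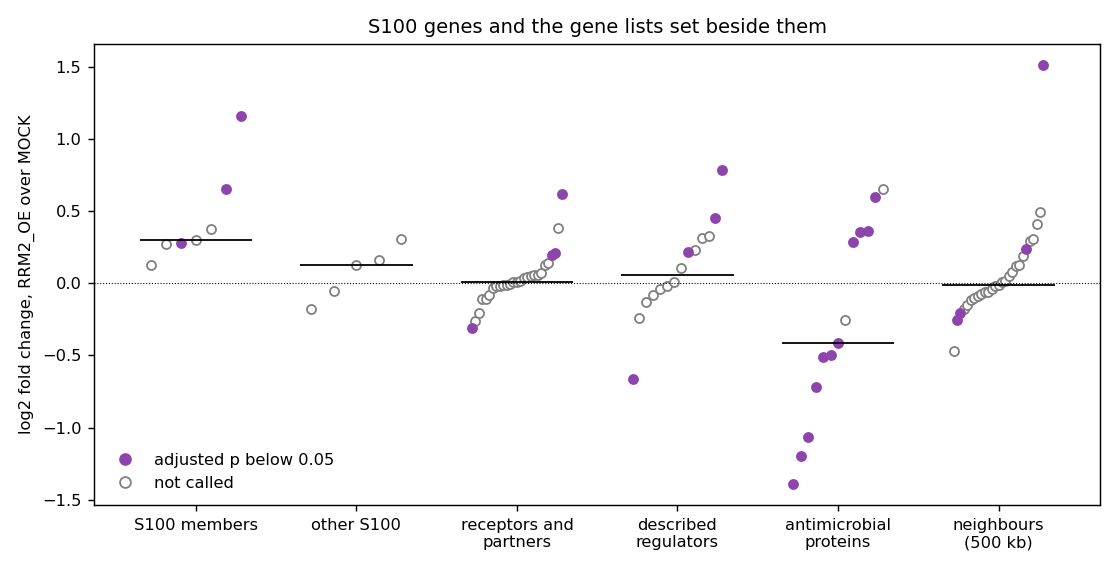
Log2 fold change of RRM2_OE over MOCK (y axis) for the 7 tested S100 genes, the other tested S100 genes, receptors and partners, described regulators, antimicrobial proteins and neighbouring genes; each point is a gene, filled where the adjusted p was below 0.05, and lines are medians. The median of the S100 members is 0.30, and that of the antimicrobial proteins -0.41.

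The genes with the pattern most like S100A8 over the 8 libraries, by root mean square difference of centred log2 CPM among 11201 genes at a mean of 5 CPM or more, were PHLDA3 (0.15), CCL24 (0.15) and MS4A14 (0.15). Those most like S100A9 were OSCAR (0.09), OTUD1 (0.10) and LINC01215 (0.10). Likeness to S100A12 was not computed because of its low counts. Between members, S100A6 and S100A13 were closest (0.14), S100A8 and S100A9 differed by 0.26, and S100A4 and S100A8 were farthest apart (0.52).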

How the data were processed

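RNA was measured in 8 THP1 libraries by stranded poly(A) RNA sequencing from 200 ng of total RNA, per the labels' protocols. Tools listed, per the submitters' processing notes, were TopHat2, HTSeq 0.11.2 and bcl2fastq 2.18.0.12, with build hg19 (GRCh37). The deposited count table holds whole-number counts per Ensembl gene, with no normalization. The authors' RPKM values were recomputed from the counts, column totals and exon lengths to within 4.7e-06, and exon length in base pairs stands in the deposited tables per the file headers. Symbols came from a table of current names (24496 genes named).

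Counts were tested in edgeR 4.0.16 (R 4.3.3): filterByExpr, TMM, robust quasi-likelihood F test, no covariate, Benjamini-Hochberg adjustment over 15286 genes, threshold 0.05. SE was taken as the absolute log2 fold change divided by the root of F. The procedure was tested on simulated data. The typical biological coefficient of variation was 7.2%. Same-numbered libraries of RRM2_OE and MOCK deviated together (correlations of 0.25, 0.23, 0.22 and 0.23), so the block is given where it changes a call. For 1 library of 8 the best match was the other group's library of equal number, libraries of unlike parity correlated at -0.28 to -0.21, and libraries of like parity but another number at 0.23 to 0.29, as high as those of equal number. The shared deviation thus followed parity and was not particular to the number. All pairs of libraries within a group differed by more than sampling noise (chi-square per degree of freedom 1.47 or more), so none were merged. Pairs of like parity were the closest, at 1.49 and 1.47 in RRM2_OE and 2.90 and 2.38 in MOCK. Pairs of unlike parity lay at 6.18 to 12.0. Fits on a single parity therefore rest on this narrower spread, and whether it is technical is not given in the labels.

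Named genes were all 8 members, tested genes of the other S100 list, the 4 genes with the smallest adjusted p below 0.05 in each further list, the 3 genes most like S100A8 and S100A9, and RRM2; others were named after their values were seen. Members and lists were chosen with earlier results of these data known. Alternatives were DESeq2 1.42.0, limma-voom (limma 3.58.1), other scaling factors and filters, the block, an odd/even term, either parity alone, log2 RPKM with pseudocounts of 1 and 0.1, a threshold of 0.01, and leaving out each library. Intervals of counting error assume independent reads.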

Additional observations from a re-analysis of the deposited data

Results flagged for a closer look

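S100A13 in MOCK had 1 library apart from the others: replicate 2, at 3.10 CPM (35 reads), against 2.64 to 2.69 CPM (30 reads each) in the other 3 MOCK libraries. This was the 1 case among 18 sets of 4 libraries checked for a value far from the rest, where chance gives about 1 in 20.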

How the results depend on the processing

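S100A6, S100A8 and S100A9 stayed higher and past an adjusted p of 0.05 under every alternative run, at log2 fold changes of 0.25 to 0.31, 0.69 to 1.27 and 0.51 to 0.84. The lowest S100A8 value, 0.69, came from log2(RPKM + 1), whose pseudocount compresses low levels. No member changed direction. The count of members higher was 5 with the replicate block, the odd/even term, odd replicate numbers only or even replicate numbers only. It was 3 to 4 on leaving out single libraries. Over all 15286 genes tested, 1499 were higher in odd-numbered libraries alone and 1413 in even-numbered libraries alone. The 5 members were not the same in each parity, since S100A11 passed in odd-numbered libraries alone and not in even-numbered ones. S100A4 passed only in the even-numbered libraries (adjusted p = 0.0111, edgeR).

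Over all genes, 2303 were higher and 2143 lower with the replicate block, 2427 and 2277 with the odd/even term, and 530 and 281 at an adjusted p below 0.01. The count lower was 1273 in odd-numbered and 1259 in even-numbered libraries, 463 on log2(RPKM + 1) and 453 on log2(RPKM + 0.1). Leaving out single libraries gave 802 to 937 higher and 544 to 603 lower, with the lowest counts without MOCK replicate 2 (544), RRM2_OE replicate 1 (545) and RRM2_OE replicate 3 (549). The causes of these shifts were not tested, beyond the fewer libraries or the stricter threshold. The S100A8 to S100A9 difference was 0.44 to 0.66 on leaving out single libraries and 0.51 with the replicate block (exact sign-flip p = 0.125). That p is the smallest the sign-flip test allows with these same-numbered pairs, so the test could not pass. Depth limits S100A8, S100A12 and S100A13, which had under 50 reads per library.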

Other observations

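S100P and S100A5, both under the count filter, are given as counts, chosen after their values were seen. S100P, first described in placenta, had 8, 13, 4 and 10 counts in RRM2_OE replicates 1 to 4, against 2, 1, 4 and 4 counts in MOCK replicates 1 to 4. The groups met at 4 counts. S100A5, which lies between S100A6 and S100A4, had 5, 6, 9 and 9 counts in RRM2_OE replicates 1 to 4, against 4, 1, 6 and 1 counts in MOCK replicates 1 to 4. Its groups overlapped, and neither gene was tested.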
